A study of Glycine max with 30 samples.

Results

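Gene expression in whole developing soybean seeds of 8 to 10 mm in length, the stage the study numbered 4, was compared between the line 3mlpa and its sister line 3MWT. The comparison rests on 6 of the 30 libraries, 3 of 3mlpa and 3 of 3MWT, chosen by their stage and line labels. The 3mlpa line is homozygous for the mutant alleles mips1, mrp-l and mrp-n and has seed low in phytic acid, while 3MWT carries the non-mutant alleles MIPS1, MRP-L and MRP-N and has normal phytic acid. Both are recombinant inbred lines of the same cross, so they also differ at other loci, and each genotype is a single line. The 48 plants of each line shared a growth chamber, and a replicate pooled at least 3 seeds from different pods on separate plants. Seeds held cotyledons, endosperm and seed coat, so fewer cells of a type and less RNA per cell cannot be told apart. The 6 libraries were sequenced together in 1 lane, and the lanes differed between stages.

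Phytic acid is the main store of phosphorus in seeds and is made from myo-inositol. MIPS1 makes inositol phosphate from glucose phosphate, the first step of this route, and the MRP proteins are transporters of the ABC family through which phytic acid is thought to reach the vacuole. Green soybean seeds of this size are filling with storage protein and oil while their cotyledons still carry out photosynthesis.

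The 2 mutated transporter genes that have an identifier in the gene annotation were read first. MRP-L (Glyma19g35230, chromosome 19) and MRP-N (Glyma03g32500, chromosome 3) are both MRP genes of the ABC transporter family. The forward qPCR primers that the study designed for them are shown here because they align to each other over their whole length, with the differing bases in capitals. How alike the genes are outside the primers was not examined.
MRP-L forward: tggtcGagtTgcagagttcA
MRP-N forward: tggtcTagtCgcagagttcG
Counted from the 5′ end of the 20 bases, with the base of MRP-L first, the 3 differences are G6T, T10C and A20G. Reads from any stretch identical in both genes were not counted for either, so the levels of both genes are uncertain to that extent. MIPS1 has no identifier in the annotation used for the counts and was not measured.

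MRP-L had normalised counts of 1423, 1779 and 2272 in 3mlpa, against 1743, 1790 and 1489 in 3MWT. The lines overlapped, with a log2 FC of 0.12 (SE 0.17) and an adjusted p of 0.709 by edgeR's quasi-likelihood test. MRP-N had 995, 1186 and 1935 in 3mlpa, against 1796, 1958 and 1828 in 3MWT. Replicates 1 and 2 of 3mlpa lay below every 3MWT library and replicate 3 within their range, and MRP-N was not called (log2 FC -0.44, SE 0.22, adjusted p = 0.273). With 3mlpa replicate 3 left out, it was called lower in 3mlpa (log2 FC -0.77, adjusted p = 0.000453). A point mutation need not alter the level of its own transcript, so neither gene checks the line labels. Normalised counts here are counts scaled to a common library size over the 6 libraries, log2 FC is 3mlpa over 3MWT, and a gene was called at 1 % FDR.

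The libraries held 26465605, 21002944 and 19448306 counts on genes in 3mlpa, against 19734753, 22612193 and 17542564 in 3MWT, with 40459 to 43037 genes detected. 3mlpa replicate 3 stood apart from the other 2 of its line. The root mean square log2 difference between replicates 1 and 2 of 3mlpa was 0.283, while that of replicate 3 to them was 0.698 and 0.686, and 3MWT libraries differed by 0.322 to 0.412 from each other. The 10 genes with most counts took 10.9, 12.2 and 21.3 % of the counts in 3mlpa replicates 1, 2 and 3, against 17.6, 19.5 and 16.6 % in 3MWT.

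The position of each library in seed development was read from 3064 genes that change between stages 3 and 5 in 3MWT, on a scale on which the stage 3 mean is 0 and the stage 5 mean is 1. 3mlpa lay at 0.347, 0.508 and 0.927, against 0.540, 0.569 and 0.570 in 3MWT. The 3mlpa libraries thus spanned most of the interval while those of 3MWT lay together. The means were 0.594 ± 0.299 in 3mlpa and 0.560 ± 0.017 in 3MWT (SD, n = 3 each), with a two-sided exact permutation p of 1, in a design that cannot give a p under 0.1. The difference of the means, 3mlpa minus 3MWT, was 0.034, and with 3mlpa replicate 3 left out it was -0.13.

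**Figure D1:**
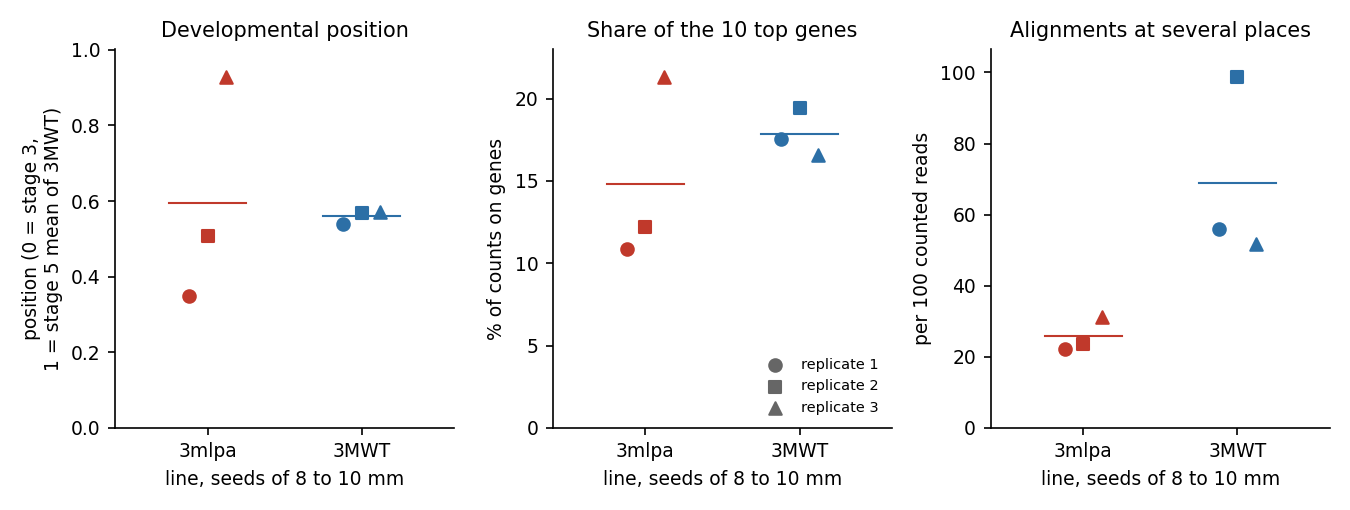
Each library of the 8 to 10 mm seeds, 3mlpa left and 3MWT right, with lines at the mean: developmental position, percent of counts in the 10 genes with most counts, and alignments at several places per 100 counted reads. 3mlpa replicate 3 lies at 0.927 in position and 21.3 % in the share of the top genes, while the ratios of alignments at several places do not overlap, with 22.3 to 31.2 in 3mlpa and 51.6 to 98.6 in 3MWT.

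Storage protein genes showed the same spread. The 14 tested genes that the deposited GO outputs annotate with nutrient reservoir activity, the term for proteins that store nutrients, were highest in replicate 3 among the 3mlpa libraries in 13 cases. The same share over all genes is not given here, so this count is a description only. Glyma10g04280 had 80782, 96701 and 613890 in 3mlpa, against 392290, 464710 and 340996 in 3MWT. Replicate 3 was thus above every 3MWT library and the other 3mlpa libraries were below them, and the gene was not called (log2 FC -0.60, SE 0.72, adjusted p = 0.664). Glyma19g34780 had 3032, 4529 and 13754 in 3mlpa, against 28362, 30381 and 16117 in 3MWT. Here the lines did not overlap, but the adjusted p was 0.0924 (log2 FC -1.81, SE 0.54). Of the 14 genes, only Glyma02g05010 was called, lower in 3mlpa (log2 FC -4.13, SE 0.50, adjusted p = 0.00489), and 10 were called lower without 3mlpa replicate 3. Over all tested genes, 0.641 % were called lower, and 5.00 % without that library. Of the 8 storage protein markers listed for this tissue, 6 carried the annotation, and all 6 were found in every library, with normalised counts of 3032 or more. The genes with most counts, Glyma10g39150 and Glyma03g32030 (both nutrient reservoir activity), Glyma08g12270 (cysteine-type peptidase activity), Glyma10g04280 and Glyma08g45531 (endopeptidase inhibitor activity), were not called.

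At 1 % FDR, 398 of 39956 tested genes were called, or 0.996 %. The 3mlpa had 142 up-regulated (0.355 %) and 256 down-regulated genes (0.641 %), and the median log2 FC of all tested genes was 0.03. The lines did not overlap for 6284 genes higher in 3mlpa (15.7 % of those tested) and for 6239 lower (15.6 %), which is the background against which such counts are read here. Without 3mlpa replicate 3, 3453 genes were called, 1485 higher (3.77 %) and 1968 lower (5.00 %), and these held all 398. Leaving out another library gave 82 to 168 calls, the fewest without 3MWT replicate 1. Counts of calls therefore depend on single libraries, and the count without 3mlpa replicate 3 is given beside the main one for the gene groups. None of the 398 genes changed sign in any of the fits that left out a library, though these fits reuse the libraries that were kept.

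**Figure D2:**
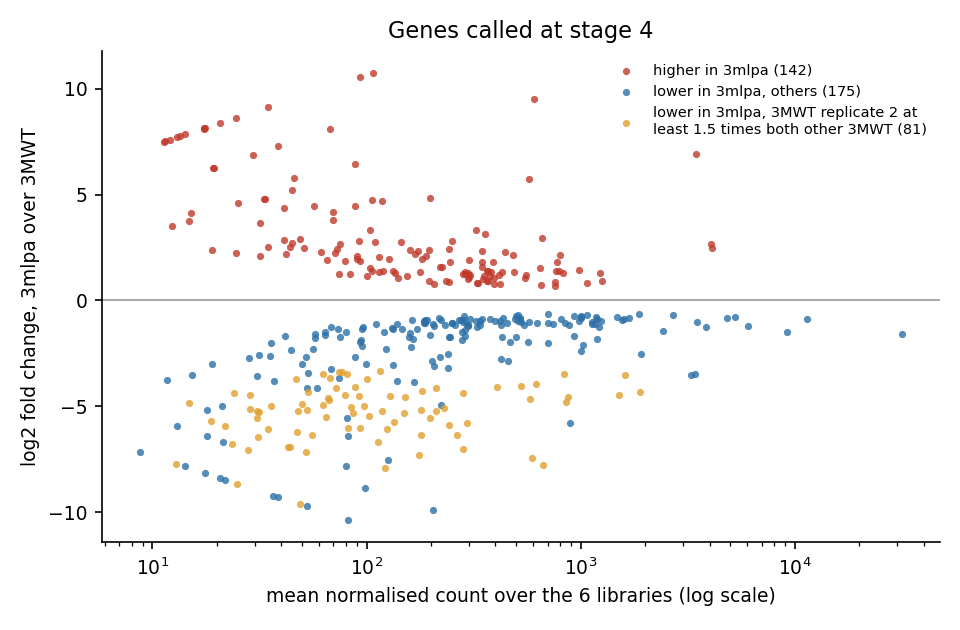
Log2 FC of 3mlpa over 3MWT against the mean normalised count of the 6 libraries (log scale) for the 398 called genes, 142 higher and 256 lower in 3mlpa. The 81 genes marked apart among the lower ones, for which 3MWT replicate 2 was at least 1.5 times both other 3MWT libraries, lie between -9.61 and -3.33.

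Photosynthesis genes had lower values in 3mlpa, and some were called. The 45 genes are those that the study named by a photosystem, antenna or chlorophyll synthesis role, drawn from its own calls at stages 3, 4 and 5 of this series, so their direction is not independent evidence. All 45 had a negative log2 FC (median -0.55, against 0.03 over all tested genes), 39 did not overlap between lines, and 7 were called lower and 0 higher, against 0.641 % of all genes called lower. When 3mlpa replicate 3 was left out, 28 were called lower, and with another library left out 2 or 3. psbA (Glyma13g15560) and psbE (Glyma12g36132) were called whichever library was left out. Both belong to the 81 genes set apart below by their high counts in 3MWT replicate 2. The called psaH, psbQ, PsbX and PsbY genes each lost their call in some fit that left out a library. The wider GO term photosynthesis, taken from genes the study had called at stages 1, 2, 3 and 5, had 12 of 60 called lower and 1 higher, with a median of -0.60, and 38 lower and 1 higher without 3mlpa replicate 3. The higher one was Glyma15g40131, annotated with photosystem II, which had 29.7, 20.9 and 30.2 in 3mlpa, against 0 in every 3MWT library. It was at least 23.8-fold higher in 3mlpa (adjusted p = 0.00659) and is not among the 45, so their common sign is in part one of membership.

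Among the members of photosystem I, which passes electrons to ferredoxin, psaH (Glyma15g01940) had 756, 718 and 777 in 3mlpa, against 1144, 1296 and 1323 in 3MWT. It was the only one of the 13 called in the main fit (log2 FC -0.74, SE 0.09, adjusted p = 0.00631), and all 13 had lines that did not overlap. Without 3mlpa replicate 3, 10 of the 13 were called lower, and DESeq2, the edgeR exact test and limma called 8, 9 and 10 of them. The log2 FC of both psaD genes, which encode a stromal subunit, was -0.92 and -0.68, and that of psaF (Glyma05g00620) was -0.84 (adjusted p = 0.0108). The log2 FC of these 13 listed genes thus ranged from -0.92 to -0.32. Glyma11g16391 and Glyma07g17331, annotated with photosystem I but not in the list, had -6.06 and -5.10.

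In photosystem II, which splits water, psbQ (Glyma01g06110), an extrinsic protein of the oxygen-evolving complex, had 16.3, 11.8 and 15.7 in 3mlpa, against 80.7, 76.8 and 65.6 in 3MWT. Its log2 FC was -2.34 (SE 0.23, adjusted p = 0.00223), while both other psbQ genes had -0.67 and -0.70 and were not called in the main fit. The small subunit gene PsbY (Glyma11g37580) had 369, 326 and 315 in 3mlpa, against 646, 735 and 865 in 3MWT (log2 FC -1.15, SE 0.13, adjusted p = 0.00362). One of the 3 PsbX genes, Glyma09g08630, was called as well (log2 FC -0.83, SE 0.11, adjusted p = 0.00725). DESeq2, the edgeR exact test and limma each called all 3 psbQ and all 3 PsbX genes, as did the fit without 3mlpa replicate 3. The psbQ, PsbY and PsbX genes lay apart between lines in every library.

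Among the antenna genes, the 5 genes of LHCB1, the most abundant light-harvesting protein of photosystem II, had log2 FC from -0.37 to -0.02, and only Glyma05g25810 did not overlap between lines. It had 17446, 16200 and 15776 in 3mlpa, against 18673, 23151 and 22256 in 3MWT. Of these 5, 0 were called by edgeR, DESeq2 or limma, also without 3mlpa replicate 3 in edgeR, and 1 had an unadjusted p under 0.05. The genes of LHCA1, LHCA2, LHCB4 and LHCB5 had -0.66 to -0.27, with 0 of 9 called by edgeR's quasi-likelihood test and 8 at an unadjusted p under 0.05. DESeq2, the edgeR exact test and limma called 6, 4 and 5 of them, and the quasi-likelihood test called 4 without 3mlpa replicate 3.

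**Figure D3:**
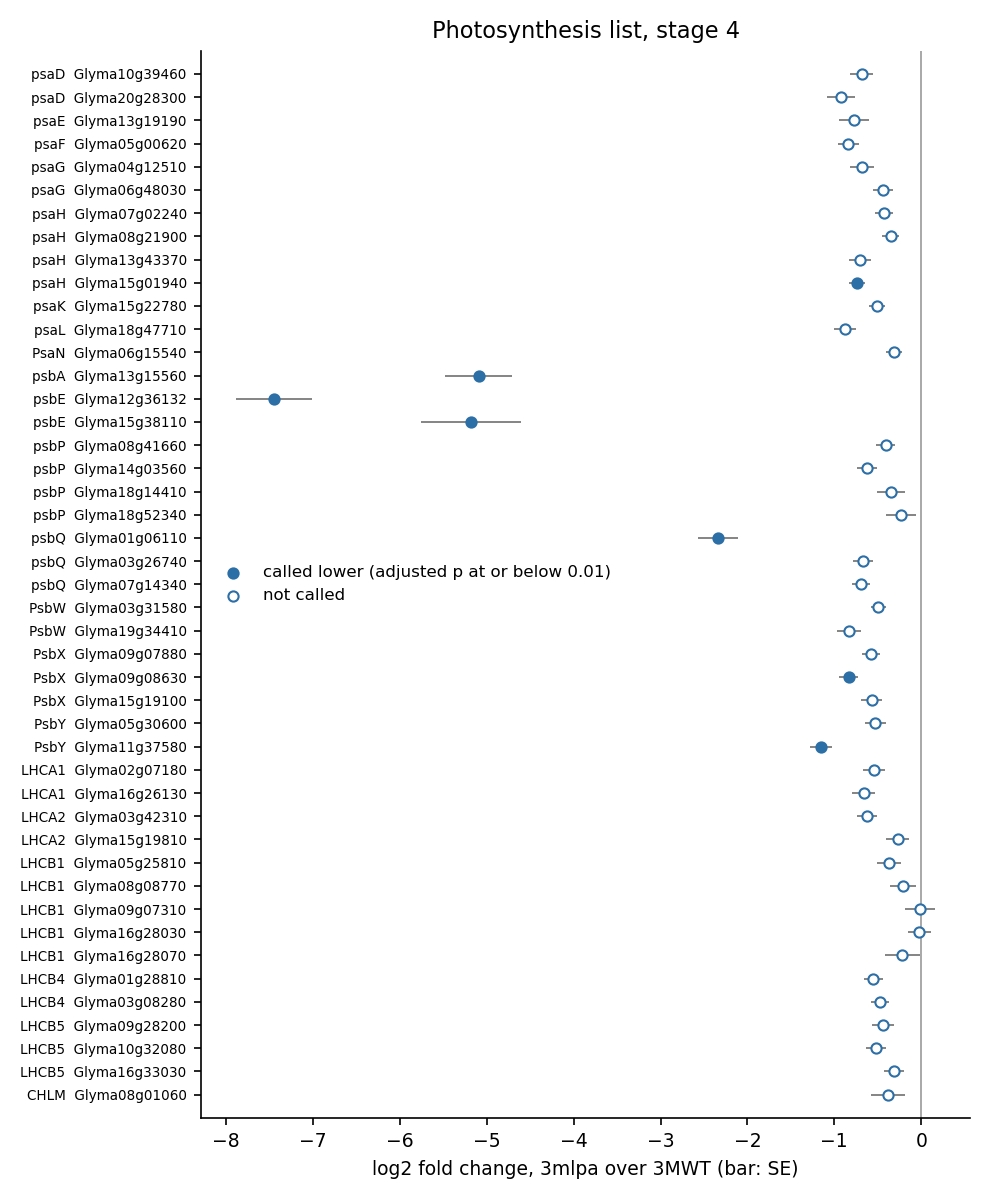
Log2 FC (with SE) of 3mlpa over 3MWT for the 45 photosynthesis genes, ordered by photosystem I, photosystem II, antenna and chlorophyll synthesis (CHLM). Filled points are the 7 genes called lower, and 42 of the 45 lie between -2.34 and -0.02, while psbA and both psbE genes lie at -7.45 to -5.09.

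Among the 45 photosynthesis genes, the 3 with the largest differences were psbA and 2 copies of psbE. Both are genes of the chloroplast genome in plants, psbA for the D1 protein of the reaction centre and psbE for a cytochrome b559 subunit, and the models counted here lie on chromosomes 13, 12 and 15 of the nuclear genome. psbE (Glyma12g36132) had 6.37, 4.54 and 9.65 in 3mlpa, against 921, 1776 and 829 in 3MWT. 3MWT replicate 2 was the highest by far (log2 FC -7.45, SE 0.43, adjusted p = 0.000257). psbA (Glyma13g15560) had 14.2, 7.27 and 18.1 in 3mlpa, against 395, 639 and 299 in 3MWT, again highest in 3MWT replicate 2 (log2 FC -5.09, SE 0.38, adjusted p = 0.000681). Glyma15g38110, the other psbE copy, had a log2 FC of -5.18 (SE 0.57, adjusted p = 0.00344).

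This order within 3MWT was shared by many called genes. After the values were seen, called genes were set apart in which 3MWT replicate 2 was at least 1.5 times both other 3MWT libraries. They numbered 81 of the 256 lower genes (31.6 %) and 10 of the 142 higher ones (7.04 %), against 806 of 34677 genes with a mean of at least 10 in a line (2.32 %). Their summed normalised counts were 1370, 1178 and 1928 in 3mlpa, against 26707, 53750 and 20824 in 3MWT, with a median log2 FC of -5.18. No test is given for this set, as it was chosen on these values.

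Only 14 of the 81 genes had a GO annotation, and most of those named parts of the energy chain of plastids or mitochondria. They included Glyma12g36141 (photosystem II), Glyma11g16391 (photosystem I), Glyma11g29878 and Glyma14g34080 (electron transport chain), Glyma17g23821 (proton transport coupled to ATP synthesis) and Glyma1246s00210 (NADH dehydrogenase). Glyma12g36141 had 4.25, 4.54 and 3.62 in 3mlpa, against 415, 869 and 401 in 3MWT (log2 FC -7.03, SE 0.45, adjusted p = 0.000375). Glyma1246s00210 had 4.25, 4.54 and 7.24 in 3mlpa, against 124, 188 and 69.5 in 3MWT (log2 FC -4.60, SE 0.45, adjusted p = 0.00226). Few counts of these genes were found in any 3mlpa library.

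Alignments that fell at several places in the genome, which were not counted for any gene, differed the same way. Their number per 100 counted reads was 22.3, 23.7 and 31.2 in 3mlpa, against 56.0, 98.6 and 51.6 in 3MWT. The highest ratio was that of 3MWT replicate 2, the library on whose high counts the 81 genes were chosen. Its high summed counts of these genes were fixed by that choice. The ratio had no part in the choice, but that the same library was highest on both measures rests on 1 library. The means were 25.7 ± 4.81 in 3mlpa and 68.8 ± 26.0 in 3MWT (SD, n = 3 each), with an exact two-sided permutation p of 0.1, the smallest this design can give. The lines did not overlap in this ratio at any of the 5 stages. Whether the 81 genes and the alignments share a source was not tested, and 45 of the 81 were still called without 3MWT replicate 2, with a median log2 FC of -4.60.

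**Figure D4:**
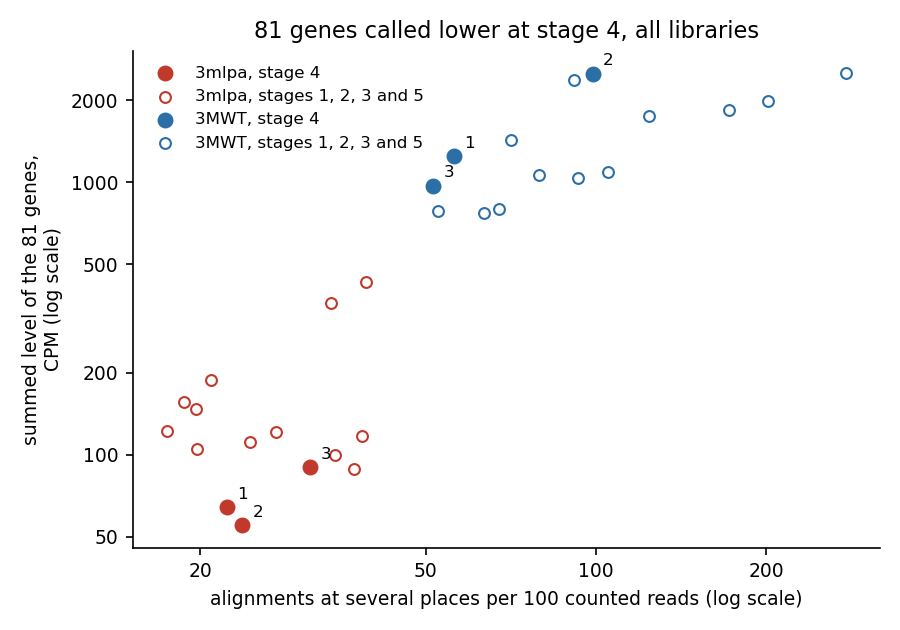
Summed level of the 81 genes (CPM, counts scaled to a common depth, log scale) against alignments at several places per 100 counted reads (log scale) in all 30 libraries, 3mlpa and 3MWT, with replicate numbers beside the filled points of the 8 to 10 mm seeds. The 3mlpa libraries of these seeds lie at ratios of 22.3 to 31.2 and those of 3MWT at 51.6 to 98.6, and 3MWT replicate 2, on whose counts the genes were chosen, lies at 98.6.

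The other 175 lower genes had closer 3MWT replicates, with summed counts of 84144, 81942 and 86248 in 3mlpa, against 203756, 209555 and 224318 in 3MWT. Their median log2 FC was -1.47. Glyma10g05480, which has no annotation in the files, had 511, 551 and 512 in 3mlpa, against 6205, 6119 and 5681 in 3MWT. It had the smallest p among lower genes (log2 FC -3.52, SE 0.10, adjusted p = 1.27e-05). Glyma05g24110, annotated with GTPase activity, had the highest mean, with 15876, 13834 and 17654 in 3mlpa, against 42384, 45161 and 54196 in 3MWT (log2 FC -1.58, SE 0.17, adjusted p = 0.0032).

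Several lower genes had metabolic annotations. Glyma17g11705, annotated with inorganic diphosphatase activity and proton transport, had 539, 616 and 555 in 3mlpa, against 5656, 5326 and 7912 in 3MWT (log2 FC -3.47, SE 0.18, adjusted p = 0.00015). Glyma12g14420, annotated with ketol-acid reductoisomerase activity, an enzyme step of branched-chain amino acid synthesis, had 3737, 3752 and 4003 in 3mlpa, against 6312, 6765 and 6822 in 3MWT (log2 FC -0.79, SE 0.10, adjusted p = 0.00611). Glyma05g27290, annotated with synthesis of the glutamine family of amino acids, had 277, 313 and 573 in 3mlpa, against 1604, 1690 and 1664 in 3MWT (log2 FC -2.10, SE 0.25, adjusted p = 0.00477). In each of these genes the lines were well apart, also with 3mlpa replicate 3. Glyma11g11870 was the member of glycolysis called lower (log2 FC -1.13, SE 0.12, adjusted p = 0.00304). Glyma03g42360, annotated as a protein kinase, had 428, 461 and 436 in 3mlpa, against 1406, 1437 and 1425 in 3MWT (log2 FC -1.69, SE 0.08, adjusted p = 0.000131).

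The 142 higher genes had summed counts of 69662, 72235 and 72448 in 3mlpa, against 19733, 20369 and 17988 in 3MWT, and a median log2 FC of 2.15. Glyma02g33660, with no annotation in the files, had 1088, 1092 and 1199 in 3mlpa, against 24.3, 20.2 and 18.4 in 3MWT. It had the smallest p of all genes (log2 FC 5.73, SE 0.13, adjusted p = 3.43e-06) and was called whichever library was left out. Glyma20g35620, annotated with O-methyltransferase activity, had 7140, 8081 and 5385 in 3mlpa, against 59.7, 46.5 and 62.9 in 3MWT (log2 FC 6.93, SE 0.22, adjusted p = 1.55e-05).

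Metabolic annotations were also found among higher genes. Glyma19g29880, annotated with amino acid biosynthesis, had 6451, 7160 and 7231 in 3mlpa, against 1193, 1493 and 1011 in 3MWT (log2 FC 2.49, SE 0.16, adjusted p = 0.000365). Glyma11g03990, annotated with isoprenoid biosynthesis, had 86.3, 84.5 and 89.3 in 3mlpa, against 12.2, 12.1 and 10.5 in 3MWT (log2 FC 2.88, SE 0.20, adjusted p = 0.000579). The replicates of both genes were close within each line. Glyma14g39783, annotated as an ATP-dependent helicase, had 1140, 1228 and 1126 in 3mlpa, against 145, 169 and 140 in 3MWT (log2 FC 2.94, SE 0.11, adjusted p = 1.64e-05). Glyma07g05530, annotated as a two-component response regulator, had 1509, 1626 and 1757 in 3mlpa, against 937, 936 and 749 in 3MWT (log2 FC 0.90, SE 0.12, adjusted p = 0.00738).

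Some genes had counts in a single line. In 14 called genes, 3MWT had 0 counts over its 3 libraries. Glyma15g38670, annotated as an acyltransferase, had normalised counts of 143, 162 and 255 in 3mlpa, so that it was at least 157-fold higher there when 3 counts over the group are taken as the floor in 3MWT. Glyma04g27662 had 137, 199.8 and 307 in 3mlpa and was at least 177-fold higher. In 12 called genes, 3mlpa had 0 counts. Glyma09g12510 had 0 in 3mlpa, against 158, 175 and 161 in 3MWT, at least 184-fold lower, and Glyma19g40141 was at least 117-fold lower. Glyma02g36640, annotated as integral to membrane, had 1 count in 3mlpa in all against 1076 counts in 3MWT, a ratio of 1354 (95 % exact counting interval 242 to 53526). DESeq2 called 39 and 29 genes of these kinds. With a library left out edgeR called 0 to 43 of those without counts in 3MWT and 2 to 32 of those without counts in 3mlpa, the most without 3mlpa replicate 3 and the fewest without 3MWT replicate 1.

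In the study's list of defence genes, also drawn from its calls on this series, most members of which encode resistance proteins with nucleotide-binding and leucine-rich repeat domains, 3 of 59 tested were called higher and 1 lower, against 0.355 % and 0.641 % of all genes. The median log2 FC was 0.64, and 47 were positive. In the fit without 3mlpa replicate 3, 13 were called higher and 8 lower, so the list moved in both directions. Glyma14g38561, an NB-ARC gene, had 67.2, 73.6 and 53.1 in 3mlpa, against 2.21, 3.03 and 1.31 in 3MWT (log2 FC 4.77, SE 0.35, adjusted p = 0.00061). Glyma06g40780, of the TIR class, had 15.6, 7.27 and 45.9 in 3mlpa, against 310, 369 and 254 in 3MWT (log2 FC -3.86, SE 0.47, adjusted p = 0.00534). Glyma03g04030 (log2 FC 2.70) and Glyma06g41866, with 0 counts in 3MWT, were the other members called. Resistance genes lie in families of close copies, and reads that aligned to several copies were not counted, so their levels are uncertain to that extent.

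Of 29 multidrug transporter genes, 3 were called higher and 0 lower, against 0.355 % and 0.641 % of all genes. The counts were 7 and 0 without 3mlpa replicate 3, and 0 or 1 higher without another library. The study chose this list as genes higher in 3mlpa at stage 2, so its direction is not independent evidence. Glyma18g11640, of the major facilitator superfamily, had 101, 104 and 55.5 in 3mlpa, against 1.11, 3.03 and 2.62 in 3MWT (log2 FC 5.20, SE 0.44, adjusted p = 0.00112). Glyma04g15306, of the same MRP superfamily as the mutated genes, had 173, 202 and 146 in 3mlpa, against 64.2, 74.7 and 60.3 in 3MWT (log2 FC 1.38, SE 0.17, adjusted p = 0.00561). Glyma18g43740, a MATE efflux carrier, was called too (log2 FC 1.52).

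Of 26 cell wall glucan genes tested, from another list of the study's calls, only Glyma13g00280 was called (higher, against 0.355 % of all genes). This xyloglucan endotransglucosylase/hydrolase gene, of a family that cuts and rejoins wall xyloglucan, had 1239, 1112 and 1255 in 3mlpa, against 406, 382 and 231 in 3MWT (log2 FC 1.82, SE 0.19, adjusted p = 0.00316). Without 3mlpa replicate 3, 4 of its family of 14 were called higher, against 3.77 % of all genes. Without another library 0 or 1 of the list were called higher. Of the 12 cellulose synthase genes 0 were called by edgeR, DESeq2 or limma, 2 with an unadjusted p under 0.05. CESA (Glyma12g36570) had 4082, 4416 and 6010 in 3mlpa, against 4363, 4153 and 4430 in 3MWT, with overlapping lines (log2 FC 0.16, SE 0.15, adjusted p = 0.562). The sugar transporter SugT1 (Glyma08g06420) had 708, 710 and 831 in 3mlpa, against 421, 339 and 586 in 3MWT. It was apart between lines but not called by edgeR's quasi-likelihood test (log2 FC 0.74, SE 0.19, adjusted p = 0.0627). DESeq2, the edgeR exact test and limma each called it.

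The study listed 53 transcription factor genes for being differentially expressed in this series. Of these, 1 was called higher and 1 lower, against 0.355 % and 0.641 % of all genes. The counts were 9 and 6 without 3mlpa replicate 3, against 3.77 % and 5.00 % of all genes. With any library left out they ranged from 0 to 9 and from 0 to 6. CAMTA (Glyma05g31190), a calmodulin-binding factor, had 268, 223 and 375 in 3mlpa, against 82.9, 73.7 and 66.9 in 3MWT (log2 FC 1.95, SE 0.21, adjusted p = 0.0032). All 4 CAMTA genes and all 6 SNF2 genes were apart and higher in 3mlpa, with median log2 FC of 1.03 and 0.66. Nothing is read from this, as the study listed the SNF2 genes for a difference between these lines at stage 3 and the CAMTA genes at stages 3 to 5. TCP (Glyma13g34690) had 333, 361 and 407 in 3mlpa, against 587, 699.9 and 750.0 in 3MWT (log2 FC -0.89, SE 0.12, adjusted p = 0.0096).

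Genes of the raffinose family oligosaccharides, whose synthesis uses myo-inositol through galactinol, had 0 of 7 members called by edgeR's quasi-likelihood test, with 2 at an unadjusted p under 0.05. DESeq2 called 1, the edgeR exact test 1 and limma 2. Raffinose synthase RS2 (Glyma06g18890) had 347, 387 and 557 in 3mlpa, against 212, 193 and 177 in 3MWT. The lines did not overlap, and the adjusted p was 0.0173 (log2 FC 1.14, SE 0.19). It was called higher without 3mlpa replicate 3 (log2 FC 0.91, adjusted p = 0.000247). Stachyose synthase (Glyma19g40550) had 182, 180 and 160 in 3mlpa, against 230.1, 194 and 182 in 3MWT (log2 FC -0.21, SE 0.13, adjusted p = 0.358). The median of the 7 was -0.04.

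Groups of genes by GO term were taken from the deposited outputs for stages 1, 2, 3 and 5, which hold genes that the study had called between the lines at those stages, so their directions carry that choice. Over all tested genes 0.355 % were called higher and 0.641 % lower, and without 3mlpa replicate 3 the shares were 3.77 % and 5.00 %. In the term oxidation reduction, 5 of 290 were called higher and 16 lower (median -0.14), with 38 and 65 without that library. Protein phosphorylation had 6 of 161 called higher and 2 lower (median 0.35), with 30 and 11 without it. Regulation of transcription had 8 of 187 higher and 4 lower (median 0.33), with 29 and 15 without it. Calls in both directions were thus found in these 3 terms. Translation had 1 of 148 called higher and 2 lower (median -0.27, 124 negative), with 6 and 29 without the library. Nucleosome assembly, the packing of DNA by histones, had 27 of 29 negative with a median of -0.47. There edgeR's quasi-likelihood test called 0, or 6 lower without the library, with 16 at an unadjusted p under 0.05 and 4 called by DESeq2, by the edgeR exact test and by limma each. These terms leaned to lower values, with few calls in the main fit. Carbohydrate metabolism had 2 of 155 higher and 7 lower, with 20 and 26 without the library. Amino acid biosynthesis had 2 of 30 higher and 4 lower, with 3 and 12 without it, and lipid metabolism had 2 of 109 higher and 4 lower, with 10 and 16.

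Called genes were found on all 20 chromosomes, from 2 of 1446 tested genes on chromosome 16 (0.138 %) to 30 of 1839 on chromosome 4 (1.63 %). On scaffolds outside the chromosomes, 6 of 124 tested genes were called (4.84 %). In 786 windows of 50 tested genes in the order of their identifiers, 525 held no called gene, and 3 windows held 7, 8 and 10. The window from Glyma13g11961 to Glyma13g15140 on chromosome 13 held 10 lower genes, 8 of them among the 81 described above. The window from Glyma12g36010 to Glyma12g36740 on chromosome 12 held 7 lower genes, all of the 81, in a run from Glyma12g36098 to Glyma12g36150 that includes psbE. The window on chromosome 15 with 8 called genes, Glyma15g38510 to Glyma15g40151, had 3 higher and 5 lower. The window of MRP-N held none of the 398 genes, and that of MRP-L held 1, Glyma19g34930 (protein kinase activity), which was higher in 3mlpa (log2 FC 1.38, SE 0.10, adjusted p = 0.000535).

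The calls were then read at the other stages, each fitted on its own 6 libraries. Of the 142 higher genes, 43, 106, 79 and 65 were called higher at stages 1, 2, 3 and 5, where 0.572, 7.68, 0.637 and 0.566 % of all tested genes were called higher. Of the 256 lower genes, 38, 167, 113 and 141 were called lower there, against 0.325, 6.56, 0.591 and 1.34 % of all tested genes. The sign was the same at both neighbouring stages for 383 of the 398 genes, 49 were called with the same sign at all other 4 stages, and 84 at none. The share of all tested genes that kept their sign is not given here, so the 383 are a description only. At stage 2, 2 higher genes were called lower. Glyma02g10320, annotated with ATP binding, is an example of a difference of the same sign at every stage, with log2 FC of 8.09, 8.40, 9.15, 9.53 and 9.64 at stages 1 to 5. Glyma10g05480 had -0.97, 0.33, -1.94, -3.52 and -2.98, with a positive value at stage 2 only.

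The 81 genes had medians of -0.80, -2.64, -2.98, -5.18 and -4.78 at stages 1 to 5, and the other 175 lower genes -0.66, -0.83, -1.16, -1.47 and -1.42. Both sets were chosen on their values at stage 4, so a larger median there is partly fixed by the choice. Stages differ in lane as well as in age, and these cannot be told apart.

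**Figure D5:**
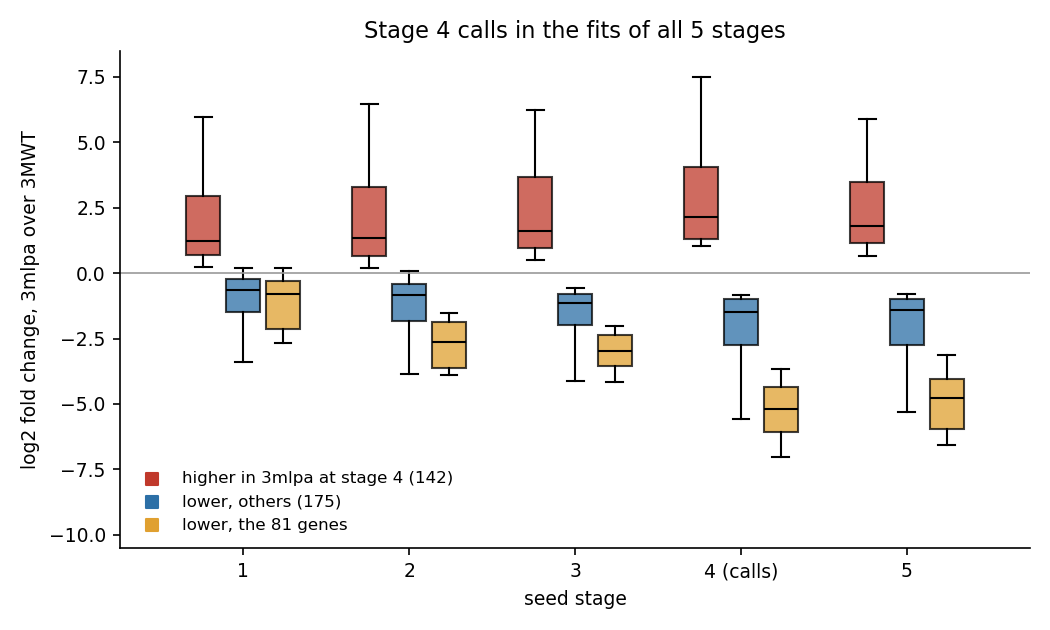
Log2 FC of 3mlpa over 3MWT at each of the 5 stages for the genes called in 8 to 10 mm seeds (stage 4), with boxes from the lower to the upper quartile, a line at the median and whiskers from the 10th to the 90th percentile. The medians of the 81 genes are -0.80 at stage 1 and -5.18 at stage 4, while those of the 175 other lower genes lie between -1.47 and -0.66.

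Whether the difference between lines in 8 to 10 mm seeds departed from that at the other stages was tested in a single edgeR fit over all 30 libraries. Against the mean of the other 4 stages, 0 of 45815 genes were called (0.000 %), with 5305 at an unadjusted p under 0.05, while DESeq2 called 84. Against stage 3 alone and stage 5 alone 0 genes were called (0.000 % each), with 3077 and 3254 at an unadjusted p under 0.05. Without 3mlpa replicate 3, 18 genes were called against the other 4 stages, 8 with a higher and 10 with a lower log2 FC than at the other stages. Of these, only Glyma15g09250 and Glyma19g43280 were among the 398 genes. Against stage 5 alone 38 were called without it, and against stage 3 alone 0. Glyma02g38210 was one of the 18, with normalised counts of 271, 266 and 110 in 3mlpa, against 161, 155 and 147 in 3MWT, a difference of 1.44 on the log2 scale (adjusted p = 0.00162). Replicate 3 of 3mlpa was the lowest of its libraries here. Glyma05g29240, a cellulose synthase, was another, with 62.3, 95.4 and 161.7 in 3mlpa, against 155.9, 93.9 and 153.4 in 3MWT. Its difference was -1.86 (adjusted p = 0.00419). With all libraries its log2 FC was 1.71, 1.70, 1.19, -0.36 and -0.18 at stages 1 to 5. Its value at stage 5 thus lay near that at stage 4.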

How the data were processed

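RNA of whole seeds was sequenced single-end with TruSeq libraries. Per the submitters' notes and the study's methods, the authors aligned reads with TopHat2 2.0.8 to the Williams 82 genome Glyma.Wm82.a1.0 and deposited raw counts per gene of annotation v1.1 from HTSeq-count in Union mode, with no normalization. Strand use is not given in the sources used here, so overlapping antisense genes cannot be told apart. Reads aligned at several places were not counted, and the 5 HTSeq summary lines stayed out of library sizes and tests. Reads without a feature made up 13.1 to 15.0 % of the sum of counted, ambiguous and no-feature reads. Alignments at several places are not in that sum. The authors' tables of normalised values, means and comparisons (fold changes and p-values by DESeq 1.12.1) were not used. From the deposited GO outputs only the genes per term and term sizes (counts of annotated genes) were read, and their test columns were not.

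Counts were tested with edgeR 4.0.16 in R 4.3.3 (TMM, quasi-likelihood), on genes with at least 10 counts over the 6 libraries, with Benjamini-Hochberg adjusted p at or below 0.01 over all tested genes. The SE of a log2 FC was derived from the F statistic of the test. Precision is limited by 17542564 to 26465605 counts per library, and floors and intervals cover counting error only. The position used log2 CPM with a prior count of 2, on genes called between stages 3 and 5 of 3MWT with at least a 2-fold change. Alternatives used DESeq2 1.42.0 and limma 3.58.1. Both fits were also run on simulated counts in which no library stood apart from its line as 3mlpa replicate 3 did. The outcome is not given here and does not cover that case.

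The genes, gene lists and tests were chosen with earlier results of these data known. Named were all genes of the lists, the 10 genes of smallest p, the 5 of highest mean and the 5 without counts in the other line in each direction, up to 5 called members per list, and the 5 genes with most counts. Glyma02g05010, the genes of the 81 and of the windows, and the genes called in the stage comparison without 3mlpa replicate 3 were named after their values were seen. Gene names and roles come from the study's lists and the GO outputs, as 0 identifiers were found in the available table of gene names.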

Additional observations from a re-analysis of the deposited data

Results flagged for a closer look

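The ratio of alignments at several places, a quantity outside the gene counts, was higher in every 3MWT library than in any 3mlpa library. It was 22.3 to 31.2 per 100 counted reads in 3mlpa, against 51.6 in the lowest and 98.6 in the highest 3MWT library. These alignments were not assigned to genes in the files, and their sequence origin was not tested. At the other stages the ranges were 20.9 to 39.2 in 3mlpa and 105 to 276 in 3MWT at stage 1, 17.5 to 19.6 in 3mlpa and 93.0 to 172 in 3MWT at stage 2, 19.7 to 27.2 in 3mlpa and 52.6 to 79.2 in 3MWT at stage 3, and 34.6 to 38.6 in 3mlpa and 67.5 to 91.3 in 3MWT at stage 5. With 3 libraries per line, no test for a library far from the others of its line was run.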

How the results depend on the processing

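The count of called genes, 398, was 397 with DESeq2 size factors, 459 with the robust fit, 563 without a filter and 414 with filterByExpr. It was 1863 (724 higher, 1139 lower) with the DESeq2 Wald test, 2059 (858 and 1201) with the edgeR exact test, 2625 (976 and 1649) with limma voom and quality weights, 1444 (560 and 884) in a single fit over 30 libraries, and 3376 (1282 and 2094) with position as a covariate. Leaving out a library gave 82 to 3453 calls, 31 to 1485 higher and 47 to 1968 lower. Photosynthesis genes called lower numbered 28, 26, 29 and 32 with DESeq2, the exact test, voom and the position covariate, and 2 to 28 with a library left out. Defence genes called higher numbered 9, 13, 12 and 15 in these fits, 12 in the fit over 30 libraries, and 1 to 13 with a library left out. MRP-N was called with voom (log2 FC -0.69) and with position as a covariate (-0.56), and had -0.77 to -0.26 with a library left out. The difference in position had -0.13 to 0.16 with a library left out. The stage comparison gave 84 calls with DESeq2, a test added after the data were seen, and 0 to 18 with a library left out. By sign alone, 387 and 391 of the 398 genes kept their direction at stages 3 and 5, with no such share over all tested genes given. The causes of these changes were not tested.

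The replicate numbers did not pair the libraries, as the deviations of same-numbered libraries correlated at 0.09, -0.04 and 0.04. With a replicate block, 291 genes were called, 240 of them among the 398, with 4 photosynthesis genes lower and 1 defence gene higher. 64 of the 91 called genes that could be named were called under the block, and no sample-wise pairing was assumed elsewhere. Leaving out a library other than 3mlpa replicate 3 kept 36 to 47 of the 91 called, while leaving out that one kept all 91. None of the 91 changed sign in any alternative, though these fits reuse the same libraries. In limma's quality weights 3mlpa replicate 3 had the lowest weight, 0.268, against 0.784 to 1.79 for the other libraries.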
